A study of Mus musculus with 12 samples.

Results

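Expression of 6 genes of the major histocompatibility complex (MHC) class II antigen presentation pathway was followed in mouse bone marrow after irradiation and treatment with parathyroid hormone (PTH). The genes were H2-Aa, H2-Ab1, H2-Eb1, H2-DMa, Cd74 and Ciita, chosen by symbol from the 19938 genes with a row of their own in the deposited array table. Each of the 6 had 1 row. No member passed the test in any of 7 comparisons. In the comparisons of PTH with vehicle and in the interaction, no gene of the whole table passed. For irradiation, 2.22% of all genes passed in vehicle mice, 2.43% in PTH mice and 6.1% averaged over treatments. Of 4 further class II chain genes, only H2-Ob passed, with lower values in irradiated marrow under both treatments.

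MHC class II molecules carry peptides from engulfed proteins to the cell surface, where CD4+ T cells read them. An alpha and a beta chain form the peptide groove, the invariant chain Cd74 fills that groove and escorts the chains to endosomes, and the H2-DM molecule then exchanges the remaining invariant chain fragment for peptides. Transcription of these genes depends on the coactivator Ciita, which is recruited to a shared arrangement of promoter boxes. B cells, dendritic cells and activated macrophages are the main class II positive cells of marrow.

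Total RNA came from whole marrow flushed from long bones of B6 mice, measured on 12 whole-transcript arrays in 4 groups of 3. Irradiated PTH mice received 2 fractions of 310 cGy at 10 days of age and then PTH for 5 days, from day 11 to day 15. Irradiated vehicle mice received the same radiation and vehicle, nonirradiated PTH mice received PTH alone, and nonirradiated vehicle mice received vehicle alone. Marrow of all 4 groups was taken on day 16, so all values are from growing animals and from a single time after irradiation. Nothing in the labels tells whether each array is a mouse of its own or a pool, and the p-values below therefore reflect the scatter of these arrays, part of which may be technical.

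Several properties of the arrays bear on the values below. By Xist and Kdm5d, 1 of 3 irradiated PTH arrays, 1 of 3 irradiated vehicle arrays, 3 of 3 nonirradiated PTH arrays and 0 of 3 nonirradiated vehicle arrays had the female pattern. PTH and sex therefore cannot be told apart in nonirradiated mice. The interquartile range of log2 values over the table was 2.88 on irradiated PTH replicate 3 and 2.86 on nonirradiated vehicle replicate 3, against 3.13 to 3.25 on the other 10 arrays. The tissue label was checked with 9 erythroid and neutrophil genes, whose mean log2 expression was between 10.4 and 11.2 on all 12 arrays. None of the 9 passed the test for irradiation averaged over treatments, against 6.1% of all genes. Because probes differ in brightness, values of different genes are not set against each other as levels, with rough exceptions. These are the tissue check, the rank of the H2-Ea row and the rows called dim.

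Upstream sequences are shown for 3 class II genes with the same promoter arrangement, chosen with their RNA results known. Of the 3, only H2-Ob passed the test for irradiation. The sequences are RefSeq's, on build GRCm38.p6, printed 5′ to 3′ on the strand of the gene. Capitals mark the letters GCAAC, the core of the X box, and ATTGG, the core of the Y box, which in class II promoters are bound by the RFX and NF-Y complexes.
H2-Aa: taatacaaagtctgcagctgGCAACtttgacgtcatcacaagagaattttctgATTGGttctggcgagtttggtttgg
H2-Eb1: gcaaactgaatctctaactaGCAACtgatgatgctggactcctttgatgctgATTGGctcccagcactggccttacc
H2-Ob: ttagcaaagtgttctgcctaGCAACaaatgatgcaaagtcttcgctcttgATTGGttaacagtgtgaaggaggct
The stretches lie at chr17:34287847-34287924 on the minus strand for H2-Aa, chr17:34305756-34305832 on the plus strand for H2-Eb1 and chr17:34238798-34238872 on the plus strand for H2-Ob. From the first base of GCAAC to the first base of ATTGG they span 33 bases in H2-Aa, 32 in H2-Eb1 and 30 in H2-Ob, and GCAAC begins 81, 91 and 87 bases before the start site. Both strands of the 250 bases before each start were searched, with the starts of the boxes 25 to 45 bases apart, in this order on 1 strand and so without overlap. In the 3 genes shown the pair is on the gene's own strand. It found the pair in 0.843% of 32851 promoters, while GCAAC alone was in 29.9% and ATTGG alone in 33.9%. Among 9 class II start sites in the RefSeq table, 5 held the pair, those of H2-Oa and H2-Eb2 besides the 3 shown. The letters were not found at this spacing before the 2 start sites of H2-DMa. H2-Ab1, Cd74 and Ciita had no entry in the table used. A match is a description of letters and was not tested as a binding site here.

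H2-Aa and H2-Ab1 encode the alpha and beta chains of I-A, the class II molecule that B6 mice carry at the cell surface. H2-Aa had log2 expression of 8.70, 9.19 and 7.85 in irradiated PTH marrow, 8.998, 9.13 and 9.33 in irradiated vehicle marrow, 9.16, 8.80 and 9.68 in nonirradiated PTH marrow, and 9.43, 9.08 and 8.22 in nonirradiated vehicle marrow. All 4 groups overlapped, and the lowest array was irradiated PTH replicate 3. H2-Ab1 had log2 expression of 9.03, 9.62 and 8.49 in irradiated PTH marrow, 9.73, 9.60 and 9.85 in irradiated vehicle marrow, 9.16, 9.26 and 9.72 in nonirradiated PTH marrow, and 8.89, 9.28 and 8.68 in nonirradiated vehicle marrow. Its 3 irradiated vehicle arrays lay above all 3 nonirradiated vehicle arrays, while irradiated and nonirradiated PTH arrays overlapped.

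H2-Eb1 encodes the beta chain of I-E, whose alpha chain gene H2-Ea is not transcribed in B6 mice because of a promoter deletion. H2-Eb1 had log2 expression of 7.53, 7.86 and 7.26 in irradiated PTH marrow, 7.97, 7.76 and 7.71 in irradiated vehicle marrow, 7.70, 7.83 and 7.89 in nonirradiated PTH marrow, and 7.64, 7.87 and 7.27 in nonirradiated vehicle marrow. It had the narrowest range over the 12 arrays of the 6 members, 0.71 on the log2 scale. The H2-Ea row stayed between 4.02 and 4.71 on all 12 arrays, and its mean was above that of 10.3% of the genes on the array.

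H2-DMa encodes the alpha chain of the peptide exchange factor H2-DM. Its log2 expression was 7.65, 8.03 and 6.58 in irradiated PTH marrow, 7.97, 7.70 and 8.05 in irradiated vehicle marrow, 7.85, 8.23 and 8.38 in nonirradiated PTH marrow, and 7.93, 8.29 and 7.17 in nonirradiated vehicle marrow. The 2 arrays with a narrow range were the lowest of the 12. The beta chain genes H2-DMb1 and H2-DMb2 share a row and were not analysed here.

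Cd74 encodes the invariant chain, which is also a surface receptor for the cytokine MIF. Its log2 expression was 8.51, 8.75 and 6.48 in irradiated PTH marrow, 9.21, 8.97 and 8.52 in irradiated vehicle marrow, 9.32, 9.53 and 9.71 in nonirradiated PTH marrow, and 8.51, 9.60 and 9.13 in nonirradiated vehicle marrow. All 3 irradiated PTH arrays lay below all 3 nonirradiated PTH arrays, whereas the vehicle groups overlapped. Ciita, the class II coactivator, had log2 expression of 6.42, 6.62 and 6.32 in irradiated PTH marrow, 6.62, 6.53 and 6.04 in irradiated vehicle marrow, 6.69, 6.96 and 6.73 in nonirradiated PTH marrow, and 6.48, 6.95 and 6.71 in nonirradiated vehicle marrow. Its irradiated PTH arrays also lay below its nonirradiated PTH arrays.

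**Figure D1:**
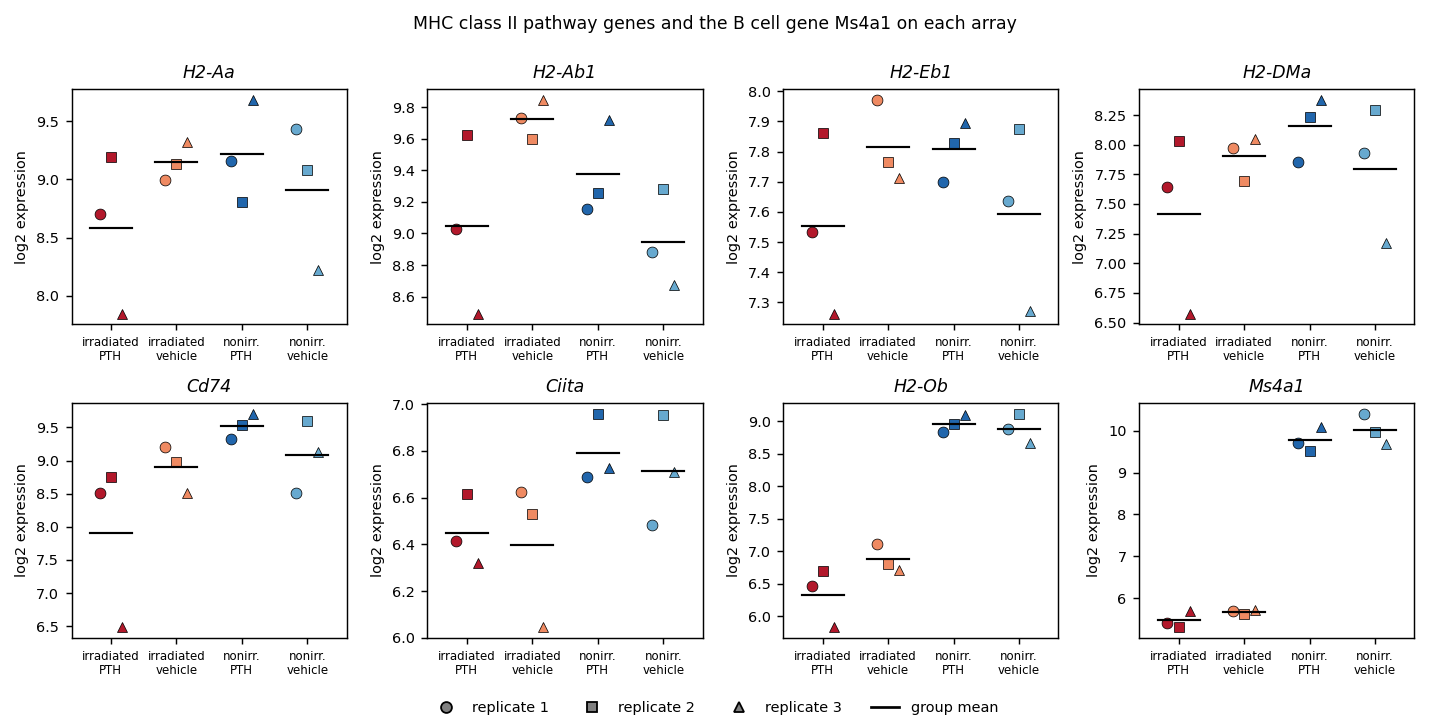
Log2 expression on each of the 12 arrays (y axis, with its own range in each panel) by group (x axis) for the 6 members, H2-Ob and the B cell gene Ms4a1. Colours mark groups, symbols mark replicate numbers and bars are group means. The 6 members overlap between most groups, with irradiated PTH replicate 3 lowest in 5 of the 6, while every irradiated array of H2-Ob and Ms4a1 lies below every nonirradiated array.

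The effect of irradiation without PTH was asked by comparing irradiated vehicle with nonirradiated vehicle marrow. No member passed the test, against 2.22% of all genes, at an adjusted p under 0.05 in limma. At an unadjusted p under 0.05 there were 1 of 6 members and 13.3% of all genes. The member with the smallest p was H2-Ab1, which averaged 9.73 ± 0.12 in irradiated vehicle marrow and 8.95 ± 0.31 in nonirradiated vehicle marrow (log2, SD, n = 3 each). Its log2 difference was 0.78 (SE 0.26, 95% interval 0.22 to 1.34), or 1.72-fold, with a limma adjusted p of 0.179. Groups that did not overlap were found for 1 of 6 members and for 18.8% of all genes. The log2 differences of the other chain genes were 0.24 for H2-Aa and 0.22 for H2-Eb1, and that of H2-DMa was 0.11. Cd74 differed by -0.18 (95% interval -1.23 to 0.87) and Ciita by -0.32 (95% interval -0.70 to 0.06). The median over the 6 members was 0.17, against -0.03 over all genes. In whole marrow, fewer cells of a type and less RNA per cell cannot be told apart.

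The effect of irradiation under PTH was asked by comparing irradiated PTH with nonirradiated PTH marrow, where the share of female arrays also differed. No member passed in limma, against 2.43% of all genes, and at an unadjusted p under 0.05 there were 1 of 6 members and 13.4% of all genes. Cd74 averaged 7.91 ± 1.24 in irradiated PTH marrow and 9.52 ± 0.19 in nonirradiated PTH marrow (log2, SD, n = 3 each). Its log2 difference was -1.61 (SE 0.48, 95% interval -2.66 to -0.56), or 0.329-fold, with a limma adjusted p of 0.129. It was -0.89 without irradiated PTH replicate 3 (limma adjusted p = 0.184). H2-DMa differed by -0.74 and H2-Aa by -0.63, and without that array by -0.31 and -0.27. The differences of Ciita (-0.34), H2-Ab1 (-0.33) and H2-Eb1 (-0.26) were smaller, and without that array they were -0.28 for Ciita, -0.0492 for H2-Ab1 and -0.11 for H2-Eb1. Groups that did not overlap were found for 2 of 6 members, Cd74 and Ciita, and for 19.8% of all genes. All 6 differences were below 0, as were those of 48.7% of all genes, and they were still below 0 without irradiated PTH replicate 3. The members share arrays and so are not separate evidence of a direction.

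Averaged over both treatments, irradiation gave 0 members past the threshold in limma and 6.1% of all genes. At an unadjusted p under 0.05 there were 2 of 6 members, Cd74 and Ciita, and 17.3% of all genes. The log2 difference was -0.89 for Cd74 (SE 0.34, limma adjusted p = 0.183), or -0.54 without irradiated PTH replicate 3, and -0.33 for Ciita (SE 0.12, limma adjusted p = 0.176). It was -0.31 for H2-DMa, -0.20 for H2-Aa, -0.02 for H2-Eb1 and 0.23 for H2-Ab1. Without irradiated PTH replicate 3 it was -0.30 for Ciita, -0.10 for H2-DMa, -0.0133 for H2-Aa, 0.0558 for H2-Eb1 and 0.36 for H2-Ab1. The 95% intervals bound what these arrays could have missed, and that of H2-Eb1 ran from -0.29 to 0.26 while that of Cd74 ran from -1.64 to -0.15. No member had groups that did not overlap, against 4.49% of all genes.

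H2-Ob encodes the beta chain of H2-O, an inhibitor of H2-DM that is found mainly in B cells. Its log2 expression was 6.47, 6.70 and 5.83 in irradiated PTH marrow, 7.11, 6.80 and 6.72 in irradiated vehicle marrow, 8.84, 8.96 and 9.09 in nonirradiated PTH marrow, and 8.88, 9.12 and 8.67 in nonirradiated vehicle marrow. Every irradiated array lay below every nonirradiated array. The log2 change of H2-Ob was -2.63 in PTH mice (SE 0.21, limma adjusted p = 0.000101) and -2.01 in vehicle mice (SE 0.21, limma adjusted p = 0.000566). Averaged over treatments it was 0.200-fold of the nonirradiated level, and it passed in each of 12 fits that left out 1 array. Its partner H2-Oa, the alpha chain of H2-O, had log2 expression of 5.53, 5.79 and 6.10 in irradiated PTH marrow, 5.76, 5.503 and 5.96 in irradiated vehicle marrow, 6.07, 6.33 and 6.42 in nonirradiated PTH marrow, and 6.18, 6.45 and 5.76 in nonirradiated vehicle marrow. Irradiated and nonirradiated groups of H2-Oa overlapped under both treatments, and it passed in none of the irradiation comparisons. Of the 4 class II chain genes outside the members, 1 fell and 0 rose averaged over treatments, with a median of -0.27. Of all genes, 3.59% fell and 2.51% rose.

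**Figure D2:**
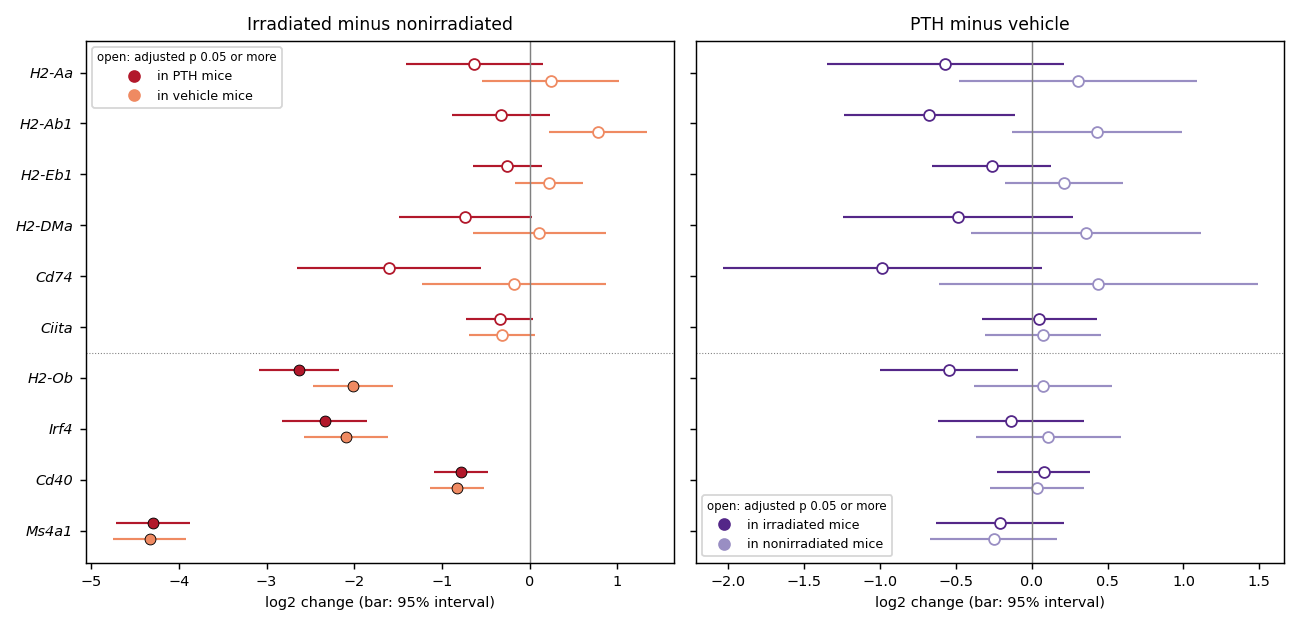
Log2 differences with 95% intervals (x axis) for the 6 members above the dotted line and for H2-Ob, Irf4, Cd40 and Ms4a1 below it, for irradiated minus nonirradiated marrow in PTH and vehicle mice (left) and PTH minus vehicle in irradiated and nonirradiated mice (right). Filled points had an adjusted p under 0.05 and open points did not. Only the 4 genes below the line have filled points, all of them for irradiation.

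The difference between each member and H2-Ob was tested directly, a comparison added after the values of H2-Ob had been seen. After H2-Ob was subtracted on each array, the averaged irradiation differences were 2.55 for H2-Ab1, 2.31 for H2-Eb1, 2.13 for H2-Aa, 2.01 for H2-DMa, 2.00 for Ciita and 1.43 for Cd74, on the log2 scale. All 6 passed in a linear model per gene without moderation, with adjusted p between 5.14e-07 for H2-Eb1 and 0.000873 for Cd74. The same test was passed by 99.8% of all genes, so a pass here is not particular to the members. In PTH mice Cd74 had the smallest difference from H2-Ob, 1.03 (adjusted p = 0.0306), and 5 or 6 members passed when single arrays were left out. In vehicle mice all 6 passed, against 99.4% of all genes, and in PTH mice 99.8% of all genes passed.

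Other genes of the pathway were read by lists. Of 11 transcription factors linked to the control of class II genes, 2 fell and 0 rose in irradiated marrow averaged over treatments. Of all genes, 3.59% fell and 2.51% rose. The list median was -0.20 against -0.01 over all genes. Irf4, a lymphoid transcription factor, fell by 2.21 on the log2 scale (limma adjusted p = 9.80e-06). It had log2 expression of 5.70, 5.56 and 5.11 in irradiated PTH marrow, 5.87, 5.56 and 5.36 in irradiated vehicle marrow, 7.63, 7.99 and 7.77 in nonirradiated PTH marrow, and 7.31, 8.12 and 7.63 in nonirradiated vehicle marrow. Rfx5, a subunit of the complex that binds the X box, fell by 0.40 (limma adjusted p = 0.0466) and passed in 3 of 12 fits without 1 array. Of 9 enzymes that process antigen and the invariant chain, 2 rose and 0 fell, with a median of 0.27. These were the endopeptidase Lgmn, with a log2 change of 0.78 (limma adjusted p = 0.0257, passed in 4 of 12 fits without 1 array), and the cathepsin Ctsl, with 0.64 (limma adjusted p = 0.0396, passed in 2 of 12). Another 2 of the 9 had changes below 0 that did not pass, down to -0.35. The mean over the 9 enzymes was between 9.91 and 10.8 in irradiated PTH marrow, 10.6 and 10.8 in irradiated vehicle marrow, 10.4 and 10.6 in nonirradiated PTH marrow, and 9.93 and 10.4 in nonirradiated vehicle marrow.

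Of 8 genes for class II turnover and costimulation, 1 fell and 0 rose averaged over treatments, with a median of -0.25. Of all genes, 3.59% fell and 2.51% rose. Cd40, a costimulatory receptor of B cells and other presenting cells, was the gene that fell, by 0.81 (limma adjusted p = 0.000434). Of 13 MHC class I presentation genes, 0 passed, and the median was -0.10. The smallest p among them was that of the chaperone Calr, with a log2 difference of 0.35 and a limma adjusted p of 0.0560, followed by Pdia3, a partner of the peptide loading complex, with 0.34.

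Markers of class II positive cells moved in different directions in the same arrays. Of 15 B cell markers, 14 fell and 0 rose averaged over treatments, with a median of -1.99. Of all genes, 3.59% fell and 2.51% rose. The log2 change was -4.31 for Ms4a1, which encodes the B cell antigen CD20, -2.95 for Cd72, -2.45 for Fcrla and -2.23 for the receptor signalling chain Cd79b. The mean log2 value of the 15 genes was 6.69 to 7.02 in irradiated PTH marrow, 6.97 to 7.29 in irradiated vehicle marrow, 8.95 to 9.23 in nonirradiated PTH marrow, and 8.76 to 9.25 in nonirradiated vehicle marrow. Of 8 precursor B cell markers, 6 fell and 0 rose, with log2 changes of -2.38 for the interleukin-7 receptor chain Il7r and -2.61 for the recombinase gene Rag1.

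Of 10 conventional dendritic cell markers, 3 rose and 2 fell averaged over treatments, with a median of 0.31. Changes were below 0 for 4 of the 10. Of all genes, 3.59% fell and 2.51% rose. Xcr1, a chemokine receptor of cross-presenting dendritic cells, had a log2 change of 1.33 (limma adjusted p = 0.00128) and Itgae one of 0.66 (limma adjusted p = 0.00721). Clec10a had 0.73 and passed in 8 of 12 fits without 1 array. The lectin Cd209a, 1 of the 2 genes that fell, fell by 1.44. The mean over the 10 genes was 6.25 to 6.47 in irradiated PTH marrow, 6.40 to 6.66 in irradiated vehicle marrow, 6.30 to 6.41 in nonirradiated PTH marrow, and 6.24 to 6.36 in nonirradiated vehicle marrow. Of 7 plasmacytoid dendritic cell markers, 3 fell and 0 rose, with log2 changes of -1.56 for Siglech, -1.34 for Ccr9 and -1.29 for Ly6d, the last also a gene of early B lineage cells.

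Of 14 macrophage and monocyte markers, 4 rose and 0 fell averaged over treatments, with a median of 0.29. Another 5 of the 14 had changes below 0 that did not pass, down to -0.48. Of all genes, 3.59% fell and 2.51% rose. The scavenger receptor Marco had a log2 change of 0.81 and the macrophage gene Cd5l one of 1.44, both passing in 12 of 12 fits without 1 array, while Mrc1 (0.43) passed in 11 and C1qc (0.49) in 2. The mean over the 14 genes was 8.15 to 8.65 in irradiated PTH marrow, 8.49 to 8.65 in irradiated vehicle marrow, 8.26 to 8.36 in nonirradiated PTH marrow, and 8.01 to 8.37 in nonirradiated vehicle marrow. Of 10 genes of the interferon-gamma response, the pathway that induces Ciita in macrophages, 4 rose and 0 fell. The list median was 0.18, and 4 of the 10 had changes below 0 that did not pass. Iigp1, a GTPase against intracellular microbes, had a log2 change of 1.53, the chemokine gene Cxcl9 had 1.13, the GTPase Irgm1 had 1.04 and the chemokine gene Cxcl10 had 0.88, and Cxcl10 passed in 2 of 12 fits without 1 array. The part of these cell types and of interferon in the class II values was not tested.

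**Figure D3:**
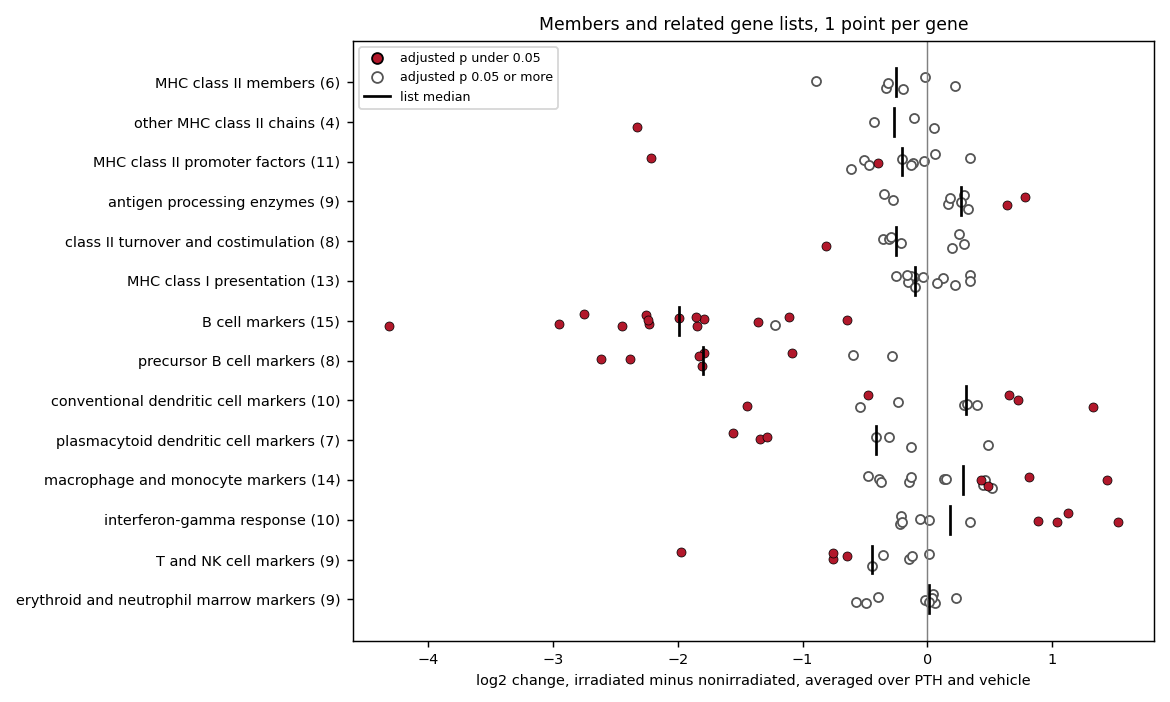
Log2 differences between irradiated and nonirradiated marrow averaged over treatments (x axis), with 1 point per gene in each list (y axis, number of genes in brackets) and a bar at the list median. Filled points had an adjusted p under 0.05. The 6 members lie between -0.89 and 0.23 and are all open, while 14 of 15 B cell markers are filled and below 0. Of all genes, 3.59% passed with a value below 0 and 2.51% with one above 0.

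The effect of PTH in irradiated marrow was asked by comparing irradiated PTH with irradiated vehicle arrays. No gene of the whole table passed in limma, which makes the share of all genes 0%. At an unadjusted p under 0.05 there were 1 of 6 members and 3.81% of all genes. That member was H2-Ab1, which averaged 9.05 ± 0.57 in irradiated PTH marrow and 9.73 ± 0.12 in irradiated vehicle marrow (log2, SD, n = 3 each), a log2 difference of -0.68 with a limma adjusted p of 0.844. Its 2 groups overlapped by a single array. The differences were -0.99 for Cd74, -0.57 for H2-Aa, -0.49 for H2-DMa, -0.26 for H2-Eb1 and 0.05 for Ciita. Without irradiated PTH replicate 3 they were -0.40 for H2-Ab1, -0.27 for Cd74, -0.20 for H2-Aa, -0.06 for H2-DMa, -0.12 for H2-Eb1 and 0.12 for Ciita, so that the differences with all arrays were more than 1.5 times those without this array for every member but Ciita. When same-numbered arrays of the irradiated groups were blocked as pairs, a fit added after seeing the data, 1 gene and no member passed, and the limma adjusted p of H2-Ab1 was 0.507. No member had groups that did not overlap, against 9.73% of all genes. The irradiated vehicle arrays also serve the comparison of irradiation in vehicle mice, so the positive value of H2-Ab1 there and its negative value here share 3 arrays.

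In nonirradiated mice, PTH against vehicle gave no gene past the threshold (0% of all genes), and at an unadjusted p under 0.05 there were 0 members and 1.79% of all genes. The log2 differences were 0.44 for Cd74, 0.43 for H2-Ab1, 0.36 for H2-DMa, 0.30 for H2-Aa, 0.21 for H2-Eb1 and 0.08 for Ciita. Single arrays moved these values. Without nonirradiated vehicle replicate 3 the difference was 0.0464 for H2-DMa, 0.0530 for H2-Eb1 and -0.0401 for H2-Aa, without nonirradiated PTH replicate 3 it was 0.26 for H2-Ab1, and without nonirradiated vehicle replicate 1 it was 0.15 for Cd74 and -0.0409 for Ciita. With all 12 arrays the limma adjusted p was 0.9996 for each member. No member had groups that did not overlap, against 6.84% of all genes, and all 3 PTH arrays but no vehicle array had the female pattern. Averaged over irradiation, PTH gave differences between -0.27 for Cd74 and 0.06 for Ciita, and again 0% of all genes passed in limma. At an unadjusted p under 0.05 there were 0 members and 1.26% of all genes.

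The interaction asks whether the PTH difference in irradiated marrow departs from that in nonirradiated marrow. No gene passed (0% of all genes), and at an unadjusted p under 0.05 there were 1 of 6 members, H2-Ab1, and 5.49% of all genes. The interaction was -1.11 for H2-Ab1 (SE 0.37, 95% interval -1.90 to -0.31, limma adjusted p = 0.732). It was -1.42 for Cd74, -0.87 for H2-Aa, -0.85 for H2-DMa, -0.48 for H2-Eb1 and -0.02 for Ciita. Without irradiated PTH replicate 3 it was -0.83 for H2-Ab1, -0.71 for Cd74, -0.51 for H2-Aa, -0.42 for H2-DMa, -0.33 for H2-Eb1 and 0.04 for Ciita. The differing values of the chain genes under irradiation in PTH and in vehicle mice were therefore not shown to differ.

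The spread between arrays of a group was large for most members. The pooled SD within groups was 0.71 for Cd74, 0.52 for H2-Aa, 0.50 for H2-DMa, 0.36 for H2-Ab1, 0.23 for H2-Eb1 and 0.22 for Ciita on the log2 scale, against a median of 0.21 over all genes. The SD of Cd74 was above that of 99.2% of genes. Over the 12 arrays, deviations from the group means correlated with the mean of the other 5 members at r between 0.643 for H2-Aa and 0.921 for H2-Eb1, except for Ciita, at 0.368. On irradiated vehicle replicate 3, Ciita had its lowest value of the 12 arrays and H2-Ab1 its highest. Irradiated PTH replicate 3 was the lowest of its group for 6 of 6 members and the lowest of the 12 arrays for 5 of 6. The same array was the lowest of the 12 for 22.6% of the other genes. Among class II genes with dim rows it was instead the highest, with 4.71 for H2-Ea, against 4.10 and 4.11 on the other irradiated PTH arrays, and 6.18 for H2-Eb2, against 5.28 and 5.14. The other array with a narrow range, nonirradiated vehicle replicate 3, was the lowest of its group for 4 of 6 members.

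**Figure D4:**
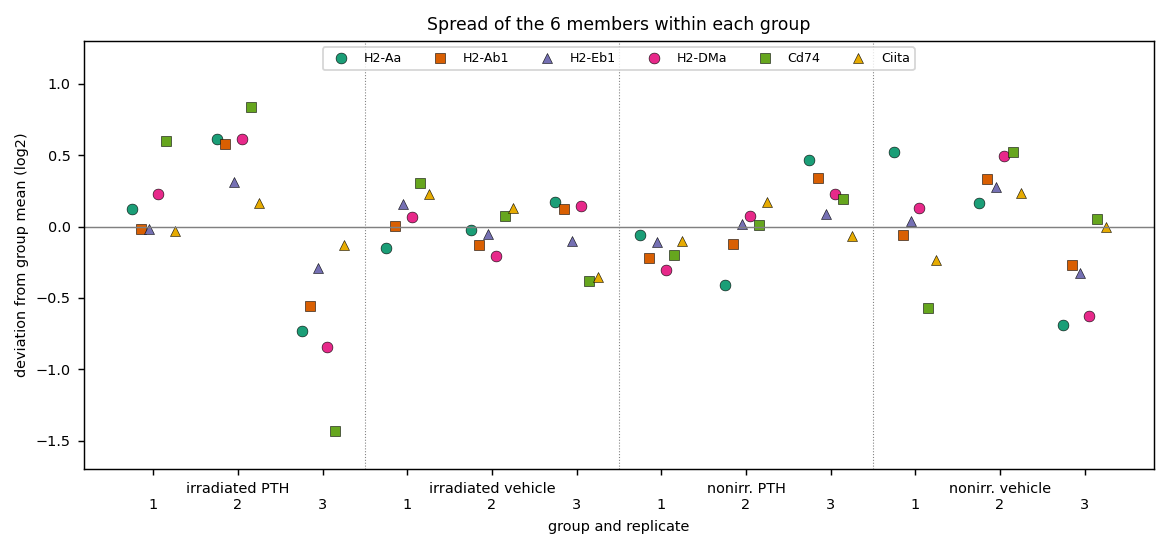
Deviation of each member from its group mean in log2 units (y axis) on each of the 12 arrays (x axis, by group and replicate number). Colours and symbols mark the genes. All 6 members lie below 0 on irradiated PTH replicate 3, where Cd74 deviates the most, and above 0 on irradiated PTH replicate 2.

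The order of the groups differed between members. Irradiated PTH marrow had the lowest mean for H2-Aa, H2-Eb1, Cd74 and H2-DMa, nonirradiated vehicle marrow the lowest for H2-Ab1 and irradiated vehicle marrow the lowest for Ciita. The highest mean was in nonirradiated PTH marrow for H2-Aa, Cd74, Ciita and H2-DMa, and in irradiated vehicle marrow for H2-Ab1 and H2-Eb1. For each of the 6 genes, every group overlapped with its neighbour in this order. For H2-Ob the 2 irradiated groups lay below, did not overlap with each other and were separate from the nonirradiated groups, which overlapped.

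Likeness between members was described by Pearson's r over the 12 arrays, which share their scaling and their groups. Against the mean of the other 5, after each gene was set to a mean of 0 and an SD of 1, r was 0.938 for H2-DMa, 0.893 for H2-Eb1, 0.808 for Cd74, 0.749 for H2-Aa, 0.680 for H2-Ab1 and 0.331 for Ciita. Without irradiated PTH replicate 3, r was 0.842 for H2-DMa, 0.869 for H2-Eb1, 0.482 for Cd74, 0.485 for H2-Aa, 0.490 for H2-Ab1 and 0.201 for Ciita. The 10 genes most like the mean of the 6 members were Tap1, Cyba, Erp29, Wdr59, Myl12b, Pgghg, Emp3, Spn, Smpd2 and Sfxn3, with r between 0.920 and 0.952. Without irradiated PTH replicate 3, 5 of these 10 were still among the 10 most like, namely Tap1, Erp29, Wdr59, Myl12b and Cyba, while Spn, Pgghg, Sfxn3, Emp3 and Smpd2 had ranks of 15, 21, 22, 24 and 43. Cdpf1 (r = 0.906) and Nudt16l1 (r = 0.905) then ranked above Tap1. Tap1, a subunit of the peptide transporter of the class I pathway, had the highest r over the 12 arrays, 0.952, and 0.896 without irradiated PTH replicate 3. Its log2 expression was 7.37, 7.72 and 6.81 in irradiated PTH marrow, 7.86, 7.53 and 7.52 in irradiated vehicle marrow, 7.70, 7.88 and 7.81 in nonirradiated PTH marrow, and 7.64, 8.09 and 7.19 in nonirradiated vehicle marrow. Its lowest values were on the 2 arrays with a narrow range, as were those of H2-Aa, H2-Ab1, H2-Eb1 and H2-DMa. H2-Ob had an r of 0.519 and the B cell gene Ms4a1 one of 0.302.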

How the data were processed

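The authors' deposited value table held 35556 rows of log2 expression values for 12 arrays of whole marrow RNA. The log2 scale was read from the values, and per the submitters' processing notes affy, RMA and limma were used, without versions or roles. No source used here names the build of the array annotation. Of the rows, 21789 had 1 gene symbol, giving 19938 genes, with the row of highest mean taken for 999 genes with several. Groups were taken from the labels. All 12 arrays were fitted in limma 3.58.1 (R 4.3.3) as 4 group means with 8 residual degrees of freedom and default moderation, p-values were adjusted by Benjamini-Hochberg over all genes, and an adjusted p under 0.05 counted as passing, in 7 comparisons. Comparisons relative to H2-Ob used the same model without moderation, because subtracting 1 gene from all others ties their errors together. The fit was tested on simulated data. The number of arrays limits the precision. The members and gene lists were chosen with earlier results of these data known. Named genes were the 6 members, up to 4 genes per list and comparison that passed, by smallest p, or else the 2 with the smallest p for averaged irradiation, and the 10 genes most like the members. Same-numbered arrays of the 2 irradiated groups had correlated deviations (r = 0.144 to 0.570, all 3 above 0.1), which meets the rule for paired numbers there. Differently numbered arrays of these groups had r from -0.509 to 0.396, 2 of them above 0.1. Same-numbered arrays there also share the sex pattern, so the correlations do not establish pairs. The results come from the fit without pairs, and the paired fit is an alternative. Same-numbered arrays of the other groups were not all above 0.1. The alternatives changed the scaling, the variance model, array weights, the filter, the row choice, the groups in the fit, terms for replicate number and sex, and left out each array.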

Additional observations from a re-analysis of the deposited data

How the results depend on the processing

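No member passed in any of 12 fits without 1 array. Of 912 alternative values for 42 member results, 3 passed, all for Cd74: irradiation in PTH mice with array weights (-0.99, limma adjusted p = 0.0475) and with arrays centred on housekeeping genes (-1.52, limma adjusted p = 0.0426), and averaged irradiation with array weights (-0.66, limma adjusted p = 0.0438). In each of these 3 alternatives 1 member passed in place of 0. Centring on housekeeping genes shifted the median of all genes by up to 0.18, for PTH in irradiated mice. Genes passing for irradiation in vehicle mice numbered 442, 1149 with array weights and 211 to 762 without 1 array. In PTH mice they numbered 485, 1148 with weights, 232 with only the 2 groups fitted, 200 with sex as a term and 225 to 531 without 1 array. Averaged, they numbered 1216, 2517 with weights and 822 to 1393 without 1 array. For PTH, 0 genes passed, but 1 did with a sex term in the average and 4 with only the nonirradiated groups fitted. The replicate block in the irradiated groups alone, added after seeing the data, gave 1 gene and no member, and the replicate block on all 12 arrays changed no member's call.

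Signs turned in 52 alternatives, 29 of them without 1 array, always for values that had not passed. With array weights the sign turned for H2-DMa under irradiation in vehicle mice (-0.21), for averaged PTH in Ciita (-0.0287), H2-Aa (0.0346) and H2-DMa (0.0552), and in Ciita for PTH in nonirradiated mice (-0.0649) and the interaction (0.0724). With housekeeping centring averaged PTH was 0.0514 for H2-DMa and 0.0901 for H2-Eb1, averaged irradiation 0.0210 for H2-Eb1 and the interaction 0.0777 for Ciita. Repeated quantile normalization gave 0.0023 for H2-Eb1 (averaged irradiation), -0.0060 for Ciita (PTH in nonirradiated mice) and 0.0797 for Ciita (interaction). A sex term gave 0.0004 for H2-Eb1 (averaged irradiation), -0.24 for Cd74 and -0.0674 for Ciita (PTH in nonirradiated mice), -0.0083 for Ciita (averaged PTH) and 0.12 for Ciita (interaction). Without both arrays of narrow range, irradiation in vehicle mice gave -0.10 for H2-Aa and -0.20 for H2-DMa, averaged PTH 0.0963 for Cd74, PTH in nonirradiated mice -0.0401 for H2-Aa and the interaction 0.0425 for Ciita. Without 1 array, irradiation in vehicle mice ran from -0.47 to 0.0772 for Cd74, -0.10 to 0.50 for H2-Aa and -0.20 to 0.36 for H2-DMa, and averaged irradiation from -0.0970 to 0.0558 for H2-Eb1. Averaged PTH ran from -0.48 to 0.0840 for Cd74, -0.0256 to 0.12 for Ciita, -0.30 to 0.0513 for H2-Aa, -0.27 to 0.0160 for H2-Ab1, -0.22 to 0.15 for H2-DMa and -0.11 to 0.0473 for H2-Eb1. PTH in irradiated mice ran from -0.13 to 0.16 for Ciita, PTH in nonirradiated mice from -0.0409 to 0.19 for Ciita and -0.0401 to 0.57 for H2-Aa, and the interaction from -0.20 to 0.0918 for Ciita. The cause was not tested. Array weights were not run for the comparison with H2-Ob.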

Other observations

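T cells include the CD4+ cells that read class II molecules, and NK cells are a further lymphoid population of marrow. Of 9 such markers, 4 fell and 0 rose in irradiated marrow averaged over treatments, against 3.59% of all genes that fell and 2.51% that rose. Cd2, an adhesion receptor also found on mouse B cells, fell by 1.98 on the log2 scale, and the T cell receptor subunits Cd3e and Cd3g fell by 0.75 and 0.76. The CD8 coreceptor gene Cd8a fell by 0.65. The mean log2 value of the 9 genes was 6.09 to 6.24 in irradiated PTH marrow, 6.25 to 6.33 in irradiated vehicle marrow, 6.85 to 7.02 in nonirradiated PTH marrow, and 6.46 to 6.89 in nonirradiated vehicle marrow. Cd3g passed in 11 of 12 fits without 1 array, and the others named passed in all 12. Cd4, the coreceptor gene of the T cells that read class II, was in the list and was not among the 4 that passed.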
